A study of Mus musculus with 4 samples.

Results

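Mast cells are tissue-resident granulocytes that hold proteases and histamine in their granules and release them when IgE bound to the high-affinity receptor FceRI is cross-linked. They mature in tissues under KIT signalling, and GATA2 is needed for their lineage genes. The 9 mast cell genes described here are Mcpt4, Tpsb2, Cma1, Cpa3, Fcer1a, Ms4a2, Kit, Gata2 and Hdc, out of 23284 gene symbols counted. They were chosen by their levels in these libraries, because they stood out in the fat library of PPARg-2KR mice, so every contrast that uses that library is a description and carries no test.

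The libraries were made from sorted regulatory T cells (Treg cells), which express FOXP3 and keep immune responses in check, from C57BL/6 mice aged 12 to 13 months, with 1 library in each of 4 groups. 2KR eWAT came from epididymal fat (eWAT, white adipose tissue of the abdomen) of PPARg-2KR mice, which carry a mutated form of the nuclear receptor PPARg, and WT eWAT came from the same depot of wild-type mice. 2KR spleen and WT spleen are the corresponding spleen samples, which the study used as controls. The sources used here do not state the gate of the sort, the promoter or cell types behind the PPARg-2KR allele, or whether animals were pooled. Genotype differences therefore rest on single libraries with no replicate, and the intervals given below cover counting error only, for which sequenced reads were treated as independent.

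Counts per library totalled 8315569 in 2KR eWAT, 11186660 in WT eWAT, 15993889 in 2KR spleen and 13250590 in WT spleen. Levels are given in CPM (counts scaled to library size) after TMM scaling, whose factor stood apart in 2KR eWAT (1.16, against 0.93 to 0.97 in the other 3 libraries), and, where genes are compared with each other, in the deposited FPKM (fragments scaled for transcript length and library size). A library with 0 reads of a gene allows up to 0.311 CPM in 2KR eWAT, 0.277 CPM in WT eWAT, 0.197 CPM in 2KR spleen and 0.242 CPM in WT spleen, the level of 3 reads. The label of the cells held in all 4 libraries: Foxp3 stood at 801 CPM in 2KR eWAT, 1160 CPM in WT eWAT, 1298 CPM in 2KR spleen and 1408 CPM in WT spleen. Pparg, the gene that carries the mutation, had 63.9 CPM in 2KR eWAT, 130 CPM in WT eWAT, 2.89 CPM in 2KR spleen and 5.73 CPM in WT spleen, and since the mutated gene is still transcribed its count does not check the genotype. The members together took 0.0114% of the reads of 2KR eWAT, 0.0026% of WT eWAT, 0.000957% of 2KR spleen and 0.00103% of WT spleen. In such sorted bulk samples, more cells of a type and more RNA per cell cannot be told apart.

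The promoters of the members were examined for the GATA motif, since GATA2 is itself a member and binds such sites in the mast cell lineage. RefSeq (GRCm38.p6, a later build than the mm9 of the files) gave a start-site window, 250 bases before to 50 bases after the start, for 8 members; Tpsb2 had none. The motif GATAA, searched on both strands, lay in the window of 5 of the 8 members, Mcpt4, Cma1, Cpa3, Fcer1a and Ms4a2, and in 25.4% of all 32851 windows. The 250 bases before the start of these 5 genes follow, 5′ to 3′ on the gene's strand, with GATAA or its reverse complement in capitals, at chr14:56062311-56062560 (Mcpt4), chr14:55944676-55944925 (Cma1), chr3:20242182-20242431 (Cpa3), chr1:173227230-173227479 (Fcer1a) and chr19:11623720-11623969 (Ms4a2), all on the minus strand.
Mcpt4: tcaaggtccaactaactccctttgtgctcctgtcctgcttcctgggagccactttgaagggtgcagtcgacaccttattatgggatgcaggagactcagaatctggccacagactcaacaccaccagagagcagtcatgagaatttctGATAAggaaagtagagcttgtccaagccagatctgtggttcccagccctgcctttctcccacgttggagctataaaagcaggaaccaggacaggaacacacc
Cma1: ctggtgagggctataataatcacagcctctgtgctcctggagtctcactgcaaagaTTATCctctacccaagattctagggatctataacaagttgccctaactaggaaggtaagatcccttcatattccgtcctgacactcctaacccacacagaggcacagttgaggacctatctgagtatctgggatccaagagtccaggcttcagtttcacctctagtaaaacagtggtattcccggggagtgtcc
Cpa3: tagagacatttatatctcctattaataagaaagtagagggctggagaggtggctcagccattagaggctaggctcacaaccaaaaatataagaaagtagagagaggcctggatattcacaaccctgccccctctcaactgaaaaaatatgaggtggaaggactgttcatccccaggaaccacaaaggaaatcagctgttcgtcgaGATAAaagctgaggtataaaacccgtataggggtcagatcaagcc
Fcer1a: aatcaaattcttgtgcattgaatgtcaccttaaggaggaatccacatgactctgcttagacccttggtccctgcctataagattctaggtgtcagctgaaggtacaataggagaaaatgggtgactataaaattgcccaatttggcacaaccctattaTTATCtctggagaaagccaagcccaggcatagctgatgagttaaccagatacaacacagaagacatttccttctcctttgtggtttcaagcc
Ms4a2: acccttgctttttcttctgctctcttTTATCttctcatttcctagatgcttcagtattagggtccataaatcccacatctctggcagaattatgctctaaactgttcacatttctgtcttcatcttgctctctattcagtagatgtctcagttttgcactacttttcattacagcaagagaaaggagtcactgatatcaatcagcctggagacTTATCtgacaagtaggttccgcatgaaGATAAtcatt

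The motif ended 98 bases before the start in Mcpt4, 190 bases before it in Cma1, 41 bases before it in Cpa3 and 88 bases before it in Fcer1a. Ms4a2 held 3 copies, ending 220, 33 and 6 bases before the start. The windows of Kit, Gata2 and Hdc did not hold these letters. Of the other motifs searched on both strands, TATAAA lay in the windows of 3 members (Mcpt4, Cpa3 and Fcer1a) and 13.6% of all windows. The E-box form CATGTG, a sequence that MITF can bind, lay in 1 member (Fcer1a) and 14.2% of all windows, and CACGTG in 0 members and 7.15% of all. The general E-box CANNTG, which includes both of these forms, lay in 6 members and 72.3% of all windows. No binding or chromatin data were analysed here, so a match is only a description of the letters.

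The granule proteases Mcpt4, Tpsb2 and Cma1 had the widest gaps between the fat libraries, and the fourth protease, Cpa3, a gap close to that of Fcer1a. Mcpt4 encodes mMCP-4, the chymase of mouse connective tissue mast cells that comes closest in function to human chymase, and lies at chr14:56678580-56681147 (mm9). It had 102 reads in 2KR eWAT and 0 reads in WT eWAT, 2KR spleen and WT spleen, that is 10.6 CPM against 0 CPM in the other 3. With WT eWAT taken at its limit of 3 reads, the 2KR eWAT level was 38.2-fold that of WT eWAT. The exact counting interval of the ratio began lower, at 30.5-fold. No gene among the 12307 that reached 5 CPM in at least 1 library had a higher log2 ratio of 2KR eWAT to WT eWAT (6.01 with a prior count of 2). Mcpt4 reached 5 CPM in 2KR eWAT alone, the library that chose the members, so this rank is only a description.

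Tpsb2 encodes mMCP-6, a tryptase stored in mast cell granules, and lies at chr17:25503277-25505037 (mm9). It had 175 reads in 2KR eWAT and 4 reads in WT eWAT, with 0 reads in 2KR spleen and 0 in WT spleen. These counts correspond to 18.2 CPM in 2KR eWAT and 0.369 CPM in WT eWAT, a 49.2-fold difference with an exact 95% interval of 18.9 to 183. Cma1, which encodes the chymase mMCP-5, lies on the same chromosome as Mcpt4 at chr14:56560287-56563498 (mm9). It had 111 reads in 2KR eWAT, 8 in WT eWAT, 0 in 2KR spleen and 1 in WT spleen. Its CPM was 11.5 in 2KR eWAT and 0.738 in WT eWAT, 15.6-fold apart (7.65 to 37.0). For all 3 of these proteases, 2KR eWAT stood alone and the other 3 libraries were below 1 CPM.

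Cpa3 encodes mast cell carboxypeptidase A3, an exopeptidase of the granules, at chr3:20115514-20142080 (mm9). Its counts were 155 in 2KR eWAT, 22 in WT eWAT, 27 in 2KR spleen and 13 in WT spleen. The CPM values were 16.1 in 2KR eWAT and 2.03 in WT eWAT, a 7.92-fold difference (5.05 to 13.0), and 1.77 in 2KR spleen and 1.05 in WT spleen. Counts and FPKM of Cpa3 did not describe the low libraries alike. Its deposited FPKM was 13.0 in 2KR eWAT, 0.562 in WT eWAT, 0.0973 in 2KR spleen and 0 in WT spleen, and the FPKM in 2KR spleen corresponds to about 2.3 reads where 27 were counted. In 2KR eWAT the FPKM corresponds to about 157 reads against 155 counted. The source of the reads counted beyond the FPKM was not tested, and the log2 ratio between the fat libraries was 2.89 from counts and 4.31 from FPKM.

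**Figure D1:**
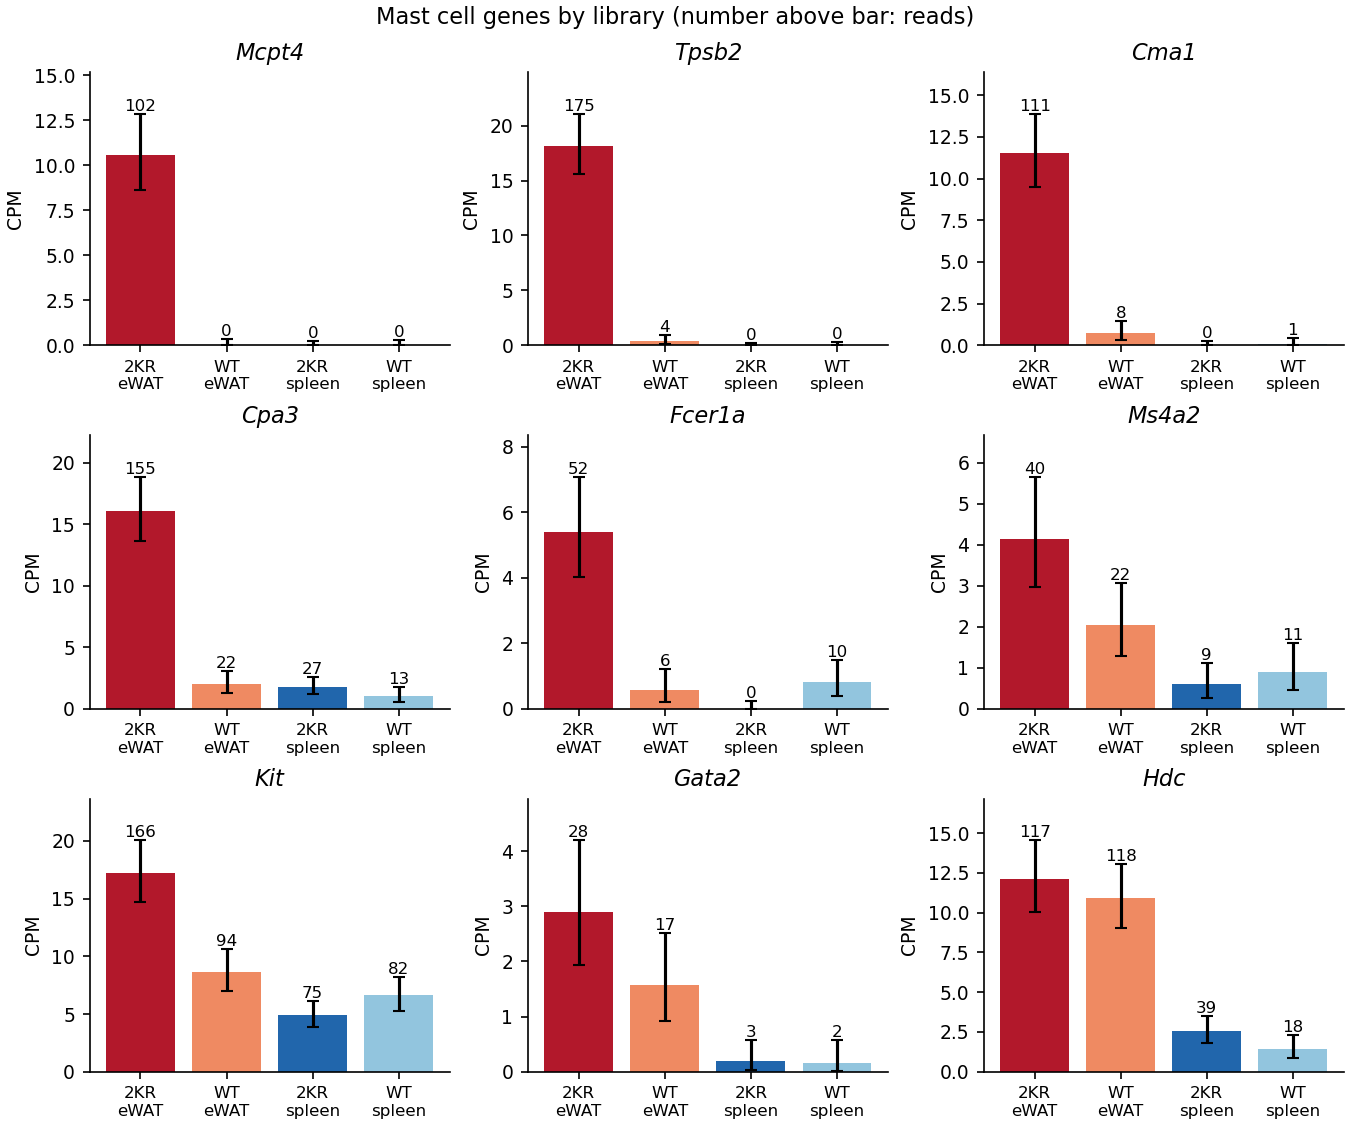
Level of each mast cell gene in CPM (y axis from 0, a separate scale per gene) in 2KR eWAT, WT eWAT, 2KR spleen and WT spleen, 1 library each, with exact 95% Poisson intervals as bars and the number of reads above. Mcpt4, Tpsb2 and Cma1 are near 0 outside 2KR eWAT, while Hdc is at 12.1 CPM in 2KR eWAT and 10.9 CPM in WT eWAT.

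The 2 subunits that distinguish the IgE receptor were higher in 2KR eWAT as well, at lower levels. Fcer1a, the IgE-binding alpha chain (chr1:175151401-175157360, mm9), had 52 reads in 2KR eWAT, 6 in WT eWAT, 0 in 2KR spleen and 10 in WT spleen. Its CPM was 5.40 in 2KR eWAT and 0.554 in WT eWAT, 9.74-fold apart (4.19 to 27.8). In spleen the order of the genotypes was the other way, with 0 CPM in 2KR spleen and 0.808 CPM in WT spleen. With 2KR spleen taken at its limit of 3 reads, it was 4.11-fold lower. The exact counting interval of the 2KR over WT fold in spleen reached up to 0.362, a smaller difference. The deposited FPKM in WT spleen, 0.358 (0 to 0.716), corresponds to about 4.9 reads, fewer than the 10 counted. Ms4a2, the signal-amplifying beta chain (chr19:11691682-11698133, mm9), had 40 reads in 2KR eWAT, 22 in WT eWAT, 9 in 2KR spleen and 11 in WT spleen. The CPM values of 4.15 in 2KR eWAT and 2.03 in WT eWAT differed 2.04-fold (1.19 to 3.61).

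Ms4a2 shares sequence with another gene of its family. In 3.4% of the 100-base windows of its transcript, Ms4a4b, a T cell gene, held the same sequence within 4 mismatches, the tolerance of the alignment. Ms4a4b had 519 CPM in 2KR eWAT, 387 CPM in WT eWAT, 1927 CPM in 2KR spleen and 1893 CPM in WT spleen, and its part in the Ms4a2 count was not tested. The deposited FPKM of Ms4a2, 2.40 in 2KR eWAT and 0.766 in WT eWAT, corresponds to about 20.2 and 8.7 reads, fewer than the 40 and 22 counted. This conversion is rough and went both ways. In 2KR eWAT it gave about 141 reads for Mcpt4 (102 counted), 139 for Cma1 (111) and 204 for Tpsb2 (175), but 96 for Hdc (117). The shared gamma chain of the receptor, Fcer1g, which macrophages and other myeloid cells also express, had 125 CPM in 2KR eWAT and 91.9 CPM in WT eWAT, a log2 ratio of 0.44.

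Kit, Gata2 and Hdc, the receptor, transcription factor and biosynthetic enzyme of the group, differed less between the fat libraries. Kit encodes the receptor for stem cell factor (chr5:75971011-76052746, mm9) and was counted in every library, with 166 reads in 2KR eWAT, 94 in WT eWAT, 75 in 2KR spleen and 82 in WT spleen. Its CPM was 17.2 in 2KR eWAT and 8.68 in WT eWAT, 1.99-fold apart (1.53 to 2.58), and 4.92 in 2KR spleen and 6.62 in WT spleen. Kit has a pair of annotated transcripts of 5181 and 5165 bases in the files. Cufflinks gave the longer one 1.14 FPKM in 2KR eWAT, 0.00171 in WT eWAT, 0.922 in 2KR spleen and 0.00142 in WT spleen, and the shorter one 2.65, 1.48, 0.000117 and 1.16 FPKM in the same libraries. Either form was near 0 in some library, and since they are nearly alike in length these shares are uncertain.

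Gata2 (chr6:88148657-88157026, mm9) had 28 reads in 2KR eWAT, 17 in WT eWAT, 3 in 2KR spleen and 2 in WT spleen. Its CPM of 2.91 in 2KR eWAT and 1.57 in WT eWAT were 1.85-fold apart, with an interval of 0.979 to 3.61 that includes no difference. Hdc encodes histidine decarboxylase, the enzyme that makes histamine (chr2:126419403-126444401, mm9). It had 117 reads in 2KR eWAT and 118 in WT eWAT, with 39 in 2KR spleen and 18 in WT spleen. The CPM values of Hdc were 12.1 in 2KR eWAT and 10.9 in WT eWAT, 1.11-fold apart (0.856 to 1.45), so that the fat libraries lay near each other and above both spleen libraries (2.56 CPM in 2KR spleen and 1.45 CPM in WT spleen).

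**Figure D2:**
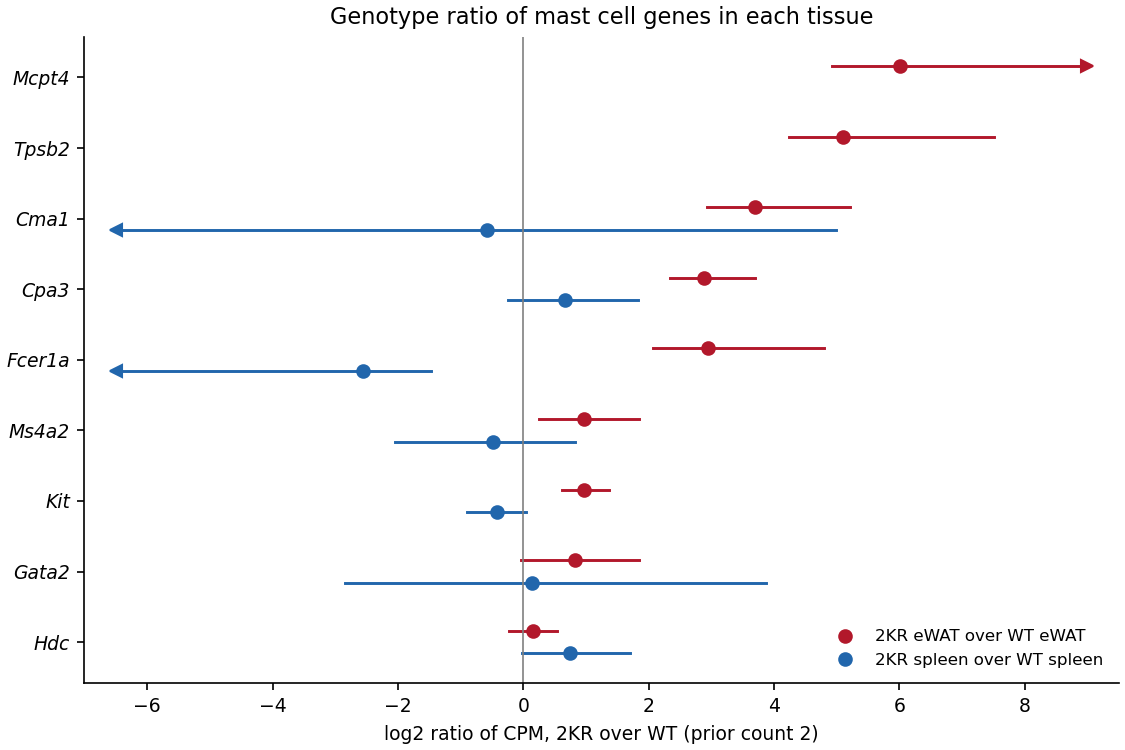
Log2 ratio of CPM, 2KR over WT, for each mast cell gene in eWAT (red) and in spleen (blue), 1 library per group; points use a prior count of 2, lines are exact 95% counting intervals, arrowheads mark intervals with no end, and Mcpt4 and Tpsb2 have no spleen point because both spleen libraries held 0 reads. The eWAT points run between 0.15 for Hdc and 6.01 for Mcpt4, and 7 of their 9 intervals lie above 0.

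Across the group, 5 of 9 members had a log2 ratio of at least 1 (2-fold, with the prior count of 2) in 2KR eWAT over WT eWAT, the 4 proteases and Fcer1a, and all 9 log2 ratios were above 0, with a median of 2.89. With counts scaled to the library total, or with the deposited FPKM, Kit, Ms4a2 and Gata2 also reached 2-fold, which made 8 of 9. With a prior count of 0.5, Ms4a2 reached it and the count was 6. The background was 5.31% of 12307 genes at least 2-fold higher and 2.36% at least 2-fold lower, with a median log2 ratio of −0.08. The same share was also taken over the 5434 genes whose reads in the 2 fat libraries summed to between 45 and 260, as those of the members did; this range was set after the values were seen. There it was 16.5%, and the median log2 ratio was 0.41. Nothing is read from these counts, since the members were selected on this contrast. Genes with a higher ratio than the member among the 12307 numbered 2 for Tpsb2, 4 for Cma1, 8 for Fcer1a, 10 for Cpa3, 697 for Kit and 4043 for Hdc. Nothing is read from these ranks either, since the 4 proteases and Fcer1a reached 5 CPM in 2KR eWAT alone. Ms4a2 and Gata2 did not reach 5 CPM in any library and are not among the 12307 genes, but they are in every count over the 9 members.

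In spleen, 0 of 9 members were at least 2-fold higher in 2KR than in WT, against 1.03% of genes, and 1 of 9, Fcer1a, was at least 2-fold lower, against 5.71% of genes. Of the 7 members with a read in either spleen library, 3 had a log2 ratio above 0 and 4 below it. The 2KR over WT log2 ratio in spleen was 0.75 for Hdc (−0.03 to 1.71), 0.67 for Cpa3 (−0.25 to 1.83) and −0.42 for Kit (−0.90 to 0.04), and each of these intervals includes 0. The genotype order of Mcpt4, Tpsb2 and Cma1 could not be looked for in spleen, where Mcpt4 and Tpsb2 had 0 reads and Cma1 had 1 read in all.

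Set against the spleen of the same genotype, all 9 members were at least 2-fold higher in 2KR eWAT, where the background was 23.1% of genes at 5 CPM. Without that filter, 10130 of 23284 genes were at least 2-fold higher. Nothing is read from this count, since 2KR eWAT is the library that chose the members. For members with 0 reads in 2KR spleen, folds of 2KR eWAT over 2KR spleen were taken at the limit of 3 reads. They were 92.3 for Tpsb2, 58.5 for Cma1, 53.8 for Mcpt4 and 27.4 for Fcer1a. The exact counting intervals began lower, at 74.3-fold for Tpsb2, 46.8-fold for Cma1, 43.0-fold for Mcpt4 and 21.5-fold for Fcer1a. The log2 ratios of the members with reads in 2KR spleen were 3.08 for Gata2, 3.07 for Cpa3, 2.51 for Ms4a2, 2.18 for Hdc and 1.77 for Kit. In WT mice, 5 of 9 members had a log2 ratio of at least 1 in eWAT over spleen with the prior count of 2. The background was 20.7% of genes at 5 CPM, and 7446 of 23284 genes without that filter. Of these 5 members, 4 had an interval above 0. These 4 were Hdc at 2.77 (2.18 to 3.71), Gata2 at 2.40 (1.21 to 6.44), Cma1 at 1.87 (0.29 to 8.66) and Ms4a2 at 1.06 (0.09 to 2.38). The fifth, Tpsb2, had 4 reads in WT eWAT and 0 in WT spleen, a bound of 1.52-fold at the limit of 3 reads, and its interval includes 0. Cpa3 at 0.85, Kit at 0.38 and Fcer1a at −0.44 also had intervals that include 0. The order among the first genes depends on the prior count: with 0.5, Gata2 was at 2.99 and Hdc at 2.87.

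The summed level shows the same shift by role. The 9 members summed to 98.2 CPM in 2KR eWAT, 26.9 CPM in WT eWAT, 10.03 CPM in 2KR spleen and 11.1 CPM in WT spleen. The 4 proteases made up 56.3 CPM of this in 2KR eWAT, 3.14 CPM in WT eWAT, 1.77 CPM in 2KR spleen and 1.13 CPM in WT spleen. That is 57.4% of the members' reads in 2KR eWAT, against 11.7% in WT eWAT, 17.6% in 2KR spleen and 10.2% in WT spleen. Kit, Gata2 and Hdc together held 32.9% of the members' reads in 2KR eWAT, 78.7% in WT eWAT, 76.5% in 2KR spleen and 74.5% in WT spleen. Between the fat libraries the protease sum differed 18.0-fold, the sum of Fcer1a and Ms4a2 3.69-fold and the sum of Kit, Gata2 and Hdc 1.53-fold.

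**Figure D3:**
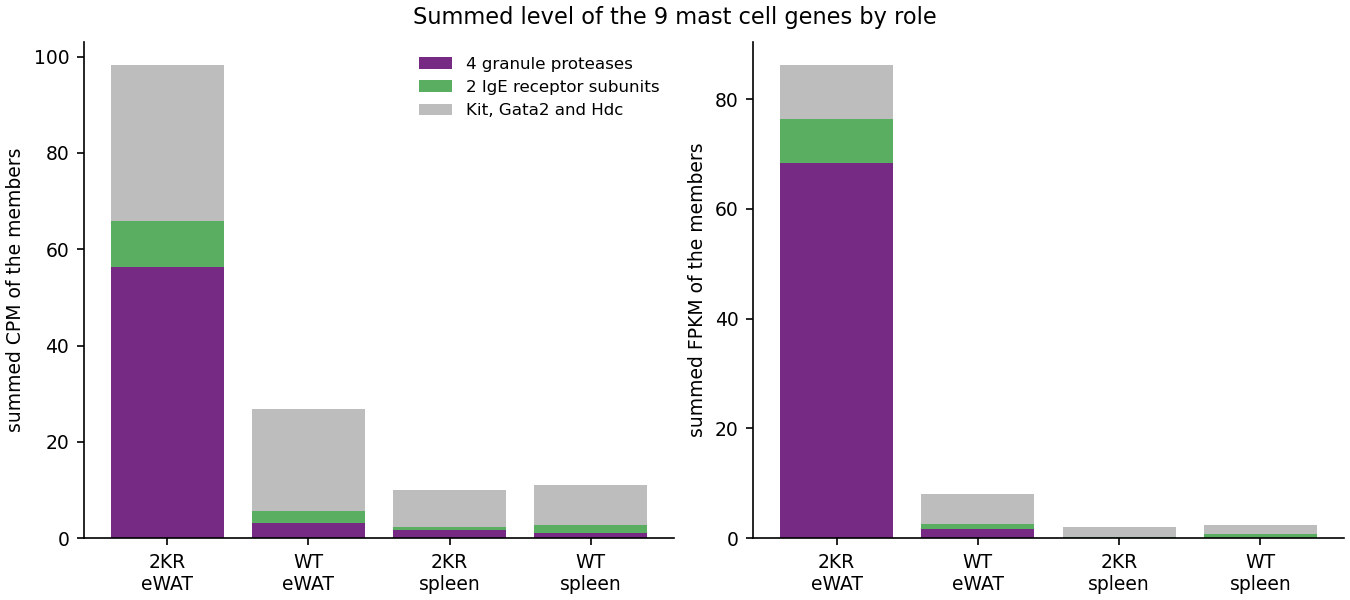
Summed CPM (left) and summed FPKM (right) of the 9 mast cell genes in each library, stacked by role, with both axes from 0. Proteases are 56.3 of 98.2 CPM in 2KR eWAT and 3.14 of 26.9 CPM in WT eWAT, and on the FPKM scale 79.3% and 20.7% of the sum.

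Levels of different genes can be compared only per length. On the FPKM scale in 2KR eWAT, Tpsb2 was highest at 22.6 FPKM, followed by Mcpt4 at 17.1, Cma1 at 15.5 and Cpa3 at 13.0 FPKM. Cufflinks' 95% intervals of neighbours in this order overlapped. Then came Fcer1a at 5.75, Hdc at 4.86 and Kit at 3.79 FPKM, again with overlapping intervals, and Ms4a2 at 2.40 and Gata2 at 1.07 FPKM. The interval of Cpa3 (10.8 to 15.3 FPKM) did not reach that of Fcer1a (3.91 to 7.59 FPKM), so the 4 proteases formed the upper group. In WT eWAT the order was led by Hdc at 3.50 FPKM (2.75 to 4.25) and Kit at 1.48 FPKM (1.15 to 1.8), with the other members between 0 and 0.766 FPKM.

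With 2KR eWAT left out, the members were tested in WT eWAT against both spleen libraries. The members were chosen by how 2KR eWAT stood out beside these same libraries, so the test is not independent of that choice. edgeR's quasi-likelihood test had 1 residual degree of freedom, between the spleen libraries of different genotype, and the lone eWAT library was assumed to vary like them. Of 16462 genes tested, 20.7% were called higher and 25.4% lower in WT eWAT at an adjusted p under 0.05. Mcpt4, Tpsb2, Cma1 and Fcer1a had too few reads to enter the test, and 1 of the 5 members that entered it passed. Hdc rose in WT eWAT by a log2 of 2.35 (edgeR adjusted p = 9.64e-05), with 10.9 CPM in WT eWAT against 2.56 CPM in 2KR spleen and 1.45 CPM in WT spleen. Gata2 had a log2 difference of 2.98 (adjusted p = 0.0912), Ms4a2 of 1.39 (0.311), Kit of 0.53 (0.333) and Cpa3 of 0.44 (0.726), and none of these passed the edgeR threshold. These p-values reflect the spread between 2 spleen libraries alone, which may be technical.

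The other genes of the mast cell programme were taken from 4 lists, of granule proteins, receptors and IgE signalling, mediators, and transcription factors, with 45 of 46 symbols in the files. In the test of WT eWAT against spleen, 20 of the 39 that entered it rose and 7 fell in WT eWAT, beside 20.7% and 25.4% of all genes tested. Their median log2 difference was 1.95, against 0.03 over all genes tested. Among those that rose were Cyp11a1, a steroid-synthesis enzyme, by 6.54, Il1rl1, the IL-33 receptor that fat Treg cells and innate lymphoid type 2 cells also carry, by 5.95, Alox5ap, the leukotriene-pathway protein FLAP, by 5.62, and Fcer1g by 2.64. Mitf, a transcription factor required for mast cell development, rose by 1.61 (edgeR adjusted p = 0.0264). Gata1, an erythroid and mast cell transcription factor, fell by 4.59, and Myb, a progenitor transcription factor, fell by 3.06. Most of these genes are expressed by other immune cells too. The genes closest to the members in specificity did not pass: Tpsab1, which encodes the tryptase mMCP-7, had a log2 difference of 2.61 (edgeR adjusted p = 0.0721), the receptor gene Mrgprb1 one of 2.1 (0.273) and Mrgprb2, a receptor for basic secretagogues on connective tissue mast cells, one of 0.025 (0.989).

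Between the fat libraries, few of these other genes had ratios like those of the proteases. Of the 33 that reached 5 CPM, 4 were at least 2-fold higher and 2 at least 2-fold lower in 2KR eWAT, beside 5.31% and 2.36% of all genes, and their median log2 ratio was 0.25, against −0.08 over all genes. The highest was Mrgprb1, with 59 reads in 2KR eWAT, 11 in WT eWAT, 3 in 2KR spleen and 3 in WT spleen, a log2 ratio of 2.41 between the fat libraries. Tpsab1 had 54 reads in 2KR eWAT, 26 in WT eWAT, 4 in 2KR spleen and 6 in WT spleen, a log2 ratio of 1.17. Myb (1.69) and Rab27b, a GTPase of granule secretion (1.68), were the others at least 2-fold higher. Mrgprb1, Tpsab1 and Rab27b reached 5 CPM in 2KR eWAT alone, so they entered this count only through the library in which they were higher. Among genes with as many fat reads as the members, 16.5% were at least 2-fold higher. Mrgprb2 was below 5 CPM, with 25 reads in 2KR eWAT, 11 in WT eWAT, 3 in 2KR spleen and 22 in WT spleen, so that WT spleen exceeded WT eWAT. Il1rl1 was lower in 2KR eWAT, at 277 CPM against 1428 CPM in WT eWAT (log2 ratio −2.36), as was Hpgds, the haematopoietic prostaglandin D synthase, at 8.09 CPM against 21.0 CPM (−1.36). Srgn, the proteoglycan serglycin to which granule proteases bind, had 1317 CPM in 2KR eWAT and 2386 CPM in WT eWAT (−0.86). Mitf had 6.33 CPM in 2KR eWAT and 7.02 CPM in WT eWAT (−0.14, and above 0 with scaling to the total count).

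Growth and survival factors that act on mast cells were counted from a list of 9. The 5 that reached 5 CPM all had log2 ratios below 0, at −1.83 for Csf2, −1.18 for Il10, −0.83 for Tgfb1, −0.49 for Il33 and −0.14 for Kitl, the KIT ligand, which is above 0 with scaling to the total count. Kitl had 16.3 CPM in 2KR eWAT and 18.0 CPM in WT eWAT, against 0.459 CPM in 2KR spleen and 0.727 CPM in WT spleen. Il3 had 5 reads in 2KR eWAT and 0 in WT eWAT.

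The chymase genes Cma1 and Mcpt4 lie in a cluster with other serine proteases of haematopoietic cells, most of which had few reads. Within 300 kb of either gene the files listed 37 genes, of which 19 reached 5 CPM in some library. Of these 19, 2 were at least 2-fold higher in 2KR eWAT, beside 5.31% of all genes at 5 CPM. They were Cma1 and Mcpt4 themselves, which reached 5 CPM in 2KR eWAT alone. Below 5 CPM, Gzme, Cma2, Gzmd, Tgm1, Gzmn, Nfatc4, Mcpt1, Ltb4r2 and Ctsg also had log2 ratios of at least 1. The highest was Gzme at 2.27, and Cideb, with 0 reads in 2KR eWAT and 3 in WT eWAT, was at −1.41. Ltb4r1, a leukotriene B4 receptor gene 173 kb away, was lower in 2KR eWAT, with 924 reads against 4164 in WT eWAT (log2 ratio −2.001). Cma2, 26.8 kb from the nearest member, had 10 reads in 2KR eWAT and 1 in WT eWAT. Mcpt1, which encodes a mucosal mast cell chymase, had 2 reads in 2KR eWAT and 0 in WT eWAT, and Mcpt2 had 0 in 2KR eWAT and 1 in WT eWAT. Mcpt9 had 16 reads in 2KR eWAT and 10 in WT eWAT, and Mcpt8, a basophil protease, 5 in 2KR eWAT and 3 in WT eWAT. Ctsg, which encodes cathepsin G, had 11 and 5 reads in these libraries. Gzmb, a cytotoxic granzyme that activated T cells express, had 2575 reads in 2KR eWAT and 1681 in WT eWAT (log2 ratio 0.78), and Gzmc 58 and 59 reads.

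**Figure D4:**
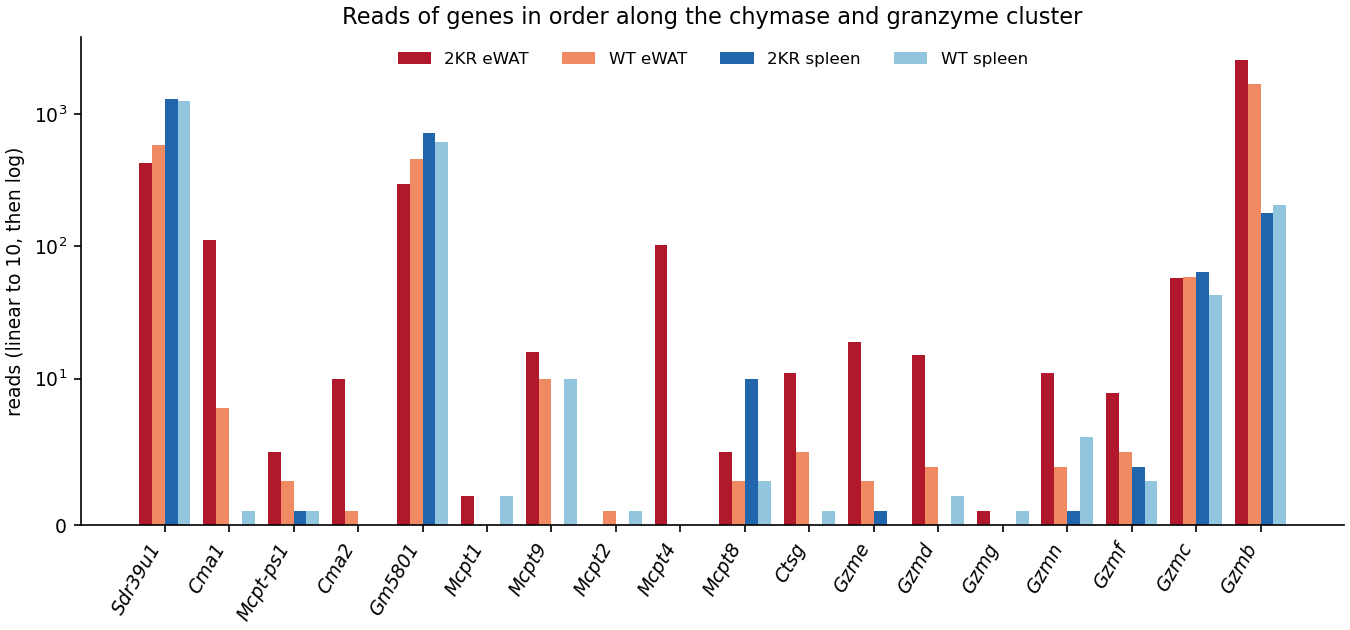
Reads of the genes along the chymase and granzyme cluster, in their mm9 order, in 2KR eWAT, WT eWAT, 2KR spleen and WT spleen; the y axis is linear up to 10 reads and logarithmic above, and reads are not scaled for depth. Cma1 has 111 and Mcpt4 102 reads in 2KR eWAT, where the genes drawn between Sdr39u1 and Gzmc, other than these and Gm5801, have 0 to 19 reads.

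These neighbours also bear on how uniquely the members could be counted. In Mcpt4, 9.61% of 100-base transcript windows were found in Cma2, Mcpt9 or Mcpt1 within 4 mismatches, and in Cma1 17.9% were found in the gene model Gm48934. The share was 0 for Tpsb2, Cpa3, Fcer1a, Kit, Gata2 and Hdc. Around Tpsb2, 25 genes lay within 300 kb, 15 of them at 5 CPM. Of these 15, 2 were at least 2-fold higher in 2KR eWAT, beside 5.31% of all genes at 5 CPM. They were Tpsb2 and the related tryptase gene Tpsab1, 20.8 kb away, and both reached 5 CPM in 2KR eWAT alone. Below 5 CPM, Ptx4, Sox8, Sstr5, Prss28 and Tekt4 also had log2 ratios of at least 1, with 6 to 34 reads in 2KR eWAT. Tpsg1, which encodes a membrane-anchored tryptase, had 1 read in 2KR eWAT and 0 in WT eWAT. The basophil protease gene Prss34 had 56 reads in 2KR eWAT and 37 in WT eWAT (log2 ratio 0.74).

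Markers of other cells were counted to set the mast cell genes beside what else the sort may have held. Basophils share Fcer1a, Ms4a2, Cpa3, Gata2 and Hdc with mast cells, and the summed level of 5 basophil markers was 24.0 CPM in 2KR eWAT and 23.9 CPM in WT eWAT. Of the 3 at 5 CPM, 0 were 2-fold different, but they did not move together. Prss34 (log2 ratio 0.74) and Itga2b (0.62) were above 0, and Il3ra (−0.75) was below it. Innate lymphoid type 2 markers, some of which fat Treg cells express, summed to 1940 CPM in 2KR eWAT and 6653 CPM in WT eWAT. Of the 10 at 5 CPM, 5 were at least 2-fold lower in 2KR eWAT, beside 2.36% of all genes, and the median log2 ratio was −1.10. Eosinophil markers summed to 107 CPM in 2KR eWAT and 200 CPM in WT eWAT, and 1 of 3 at 5 CPM, Ccr3, was at least 2-fold lower. The others of these 3, Prg2 (log2 ratio 0.51) and Il5ra (0.38), were above 0. Progenitor markers summed to 90.5 CPM in 2KR eWAT and 54.7 CPM in WT eWAT. Of the 4 at 5 CPM, 1, Flt3, was at least 2-fold higher (log2 ratio 1.51), beside 5.31% of all genes. Flt3 is also on the dendritic cell list and is counted there too. Cd34 was at 0.27, and Meis1 was below 0 (−0.54).

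Other lists also differed between the fat libraries, in both directions. Of all genes at 5 CPM, 5.31% were at least 2-fold higher and 2.36% lower in 2KR eWAT. Among genes with as many fat reads as the members, 16.5% were higher. Of the genes counted as higher below, Clec9a and Siglech (dendritic cell) and Cr2 (B cell) reached 5 CPM in 2KR eWAT alone. Dendritic cell markers summed to 2140 CPM in 2KR eWAT and 1178 CPM in WT eWAT, with 4 of 12 at least 2-fold higher and a median log2 ratio of 0.88. B cell markers summed to 226 CPM in 2KR eWAT and 130 CPM in WT eWAT, with 3 of 9 at least 2-fold higher (median 0.89). Endothelial markers summed to 311 CPM in 2KR eWAT and 192 CPM in WT eWAT, with 2 of 11 at least 2-fold higher (median 0.55). Macrophage and monocyte markers summed to 2616 CPM in 2KR eWAT and 3075 CPM in WT eWAT, with 1 of 14 in each direction (median 0.55). Of these 14 log2 ratios, 13 were above 0 and only that of Ccr2 (−1.24, 6482 reads in 2KR eWAT and 17184 in WT eWAT) was below it. Fibroblast and mesothelial markers summed to 673 CPM in 2KR eWAT and 1178 CPM in WT eWAT, with 5 of 12 at least 2-fold lower (median −0.89). Adipocyte markers summed to 136 CPM in 2KR eWAT and 175 CPM in WT eWAT. Of the 3 at 5 CPM, Fabp4 (log2 ratio −0.60) and Lpl (−0.12) were below 0 and Lep (0.64) above it. Neutrophil markers summed to 113 CPM in 2KR eWAT and 309 CPM in WT eWAT, of which Mmp9 alone made up 299 CPM in WT eWAT. Of the 2 at 5 CPM, Mmp9 was lower in 2KR eWAT (log2 ratio −1.55) and Mmp8 was above 0 (0.85). Treg and T cell genes summed to 6619 CPM in 2KR eWAT and 8578 CPM in WT eWAT, with 0 of 10 at least 2-fold different (median −0.37). In the spleens the sums of the macrophage and monocyte list were 133 CPM in 2KR spleen and 171 CPM in WT spleen, and those of the fibroblast list 56.1 CPM in 2KR spleen and 51.6 CPM in WT spleen. The part of other cells in the mast cell gene levels was not tested.

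**Figure D5:**
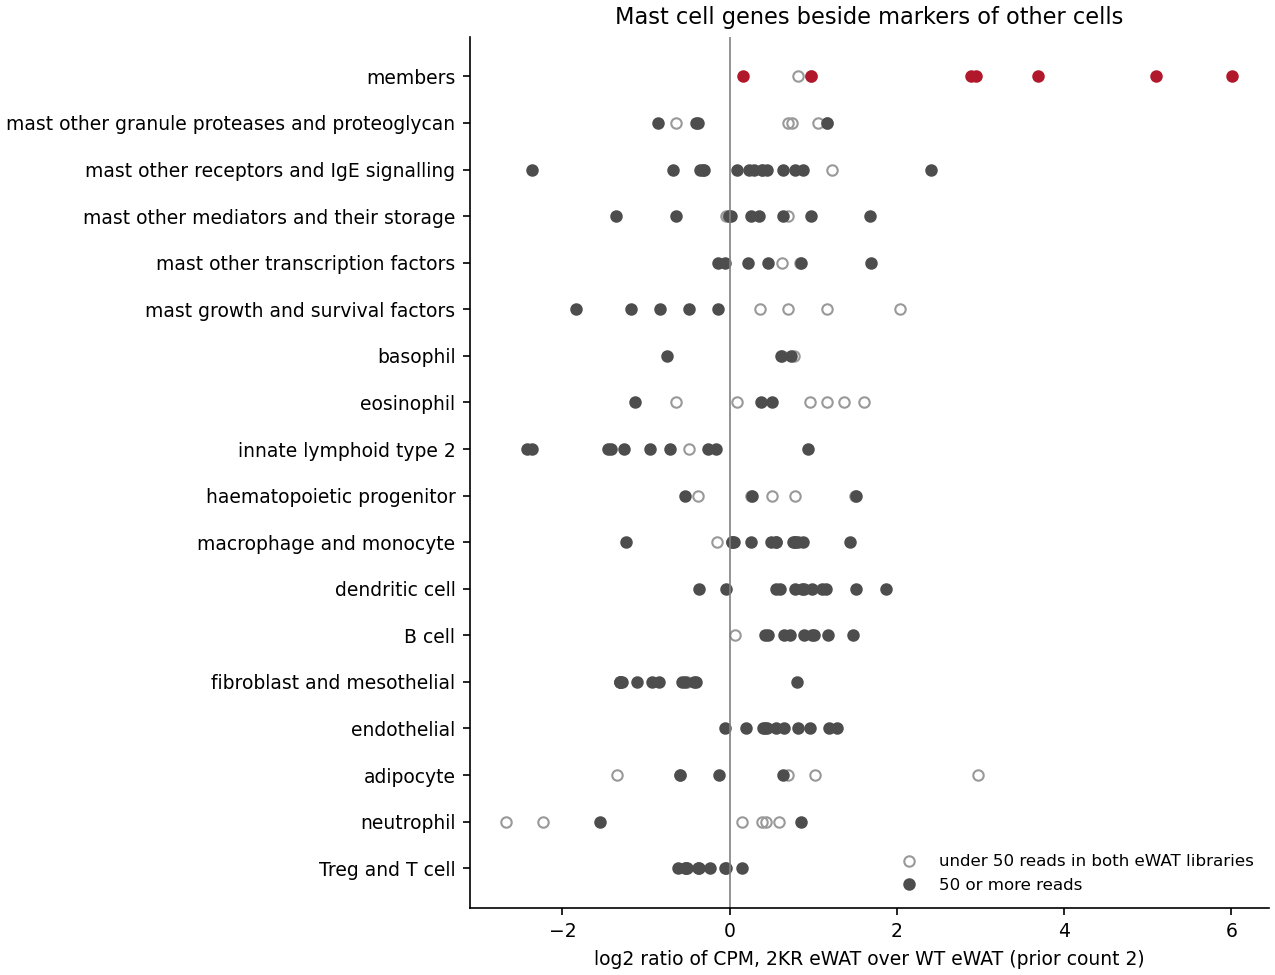
Log2 ratio of CPM, 2KR eWAT over WT eWAT, of the 9 mast cell genes (red) and of the genes of the other lists (grey), 1 point per gene; open points had under 50 reads in both eWAT libraries. The 4 proteases and Fcer1a, at 2.89 to 6.01, lie to the right of every filled point of the other lists, of which Mrgprb1 is highest at 2.41. Nothing is read from this position, since the members were selected on this contrast.

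The profile over the 4 libraries was used to look for genes whose pattern was most like that of the members. The mean of the centred log2 CPM profiles of the 7 members with 50 or more reads in a library was compared with 11759 genes by Euclidean distance. Of the genes with 50 or more reads in 2KR eWAT and a gene name, Mrgprb1 was nearest, at 0.51 log2 units. It was followed by Klra17 (0.57), a receptor of the Ly49 family, Olfr878 (0.65), Alpi (0.81), Gja5 (0.86), Chi3l4 (0.86), Tll1 (0.90), Vmn1r13 (0.94), Il1a (0.97) and Rab39 (1.03). With a prior count of 0.5, 6 of these 10 were still among the nearest. Klra17 had 151 reads in 2KR eWAT, 17 in WT eWAT, 9 in 2KR spleen and 5 in WT spleen. The members themselves lay between 1.04 (Cpa3) and 2.24 (Kit) from their mean, farther than all 10 genes named. With 4 libraries, 1 of which sets the shape, the distance orders the genes and no more.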

How the data were processed

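Per the deposited readme, poly-A libraries were read at 100 bases, demultiplexed by bcl2fastq 1.8.4 and mapped by Tophat 2.1.0 on mm9 (4 mismatches, up to 10 hits). The deposited counts are the authors' whole-number reads per gene symbol. How reads were counted (tool, strand, multiple hits) is not given in the sources used here. The authors' FPKM come from Cufflinks 2.0.2. The labels also name mm8.

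From the counts, TMM factors (edgeR 4.0.16, R 4.3.3), CPM, log2 ratios (prior count 2) and exact conditional binomial 95% intervals were computed. Higher or lower meant a log2 ratio of 1 or more in size; shares of all genes are over those at 5 CPM or more in 1 library, and counts of members over all 9, of which 7 reached it. A count of 0 was limited at 3 reads, and folds at this limit took the count of the other library as exact. WT eWAT was tested against both spleen libraries with edgeR's quasi-likelihood test and Benjamini-Hochberg adjustment; on simulated data it was checked for recovery of known changes. DESeq2 1.42.0, other scalings, prior counts and FPKM (pseudocount 0.1) were alternatives. Sequences were compared with GENCODE transcripts and RefSeq windows in Python 3.11.15.

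The members and the 17 lists were chosen with earlier results of these data known. Named were all members, up to 6 genes per other list by absolute ratio among those with 50 reads in a fat library, list genes passing the test, the 10 nearest profiles, and neighbours within 300 kb. Mrgprb2, Il3 and Ms4a4b were named after their values were seen.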

Additional observations from a re-analysis of the deposited data

Results flagged for a closer look

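Fcer1a had a genotype ratio of opposite direction in the 2 tissues. In eWAT the 2KR over WT log2 ratio of Fcer1a was 2.95 (52 reads in 2KR eWAT, 6 in WT eWAT) and in spleen it was −2.55 (0 reads in 2KR spleen, 10 in WT spleen). The spleen value rests on few reads, and the FPKM interval in WT spleen reaches 0. These directions were also the common ones among all 23284 genes without a filter on low values. In eWAT, 3458 were at least 2-fold higher and 736 lower in 2KR, and in spleen 642 were higher and 2528 lower. With 1 library per group the difference between the tissues was not tested.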

How the results depend on the processing

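With counts scaled to the total, which moved the median log2 ratio of all genes between the fat libraries by 0.26, 8 of 9 members were at least 2-fold higher in 2KR eWAT, and with the deposited FPKM (0.23) also 8, against 5 as reported; Hdc was the exception in both. The cause was not tested. With FPKM, 1 member (Hdc) was at least 2-fold higher in 2KR spleen, against 0, and with a prior count of 0.5, 2 were at least 2-fold lower in 2KR spleen, against 1. Genes called higher in WT eWAT numbered 5555 when both eWAT libraries entered the test and 1551 with the DESeq2 Wald test, against 3403; DESeq2 tested 14238 genes and edgeR 16462. With DESeq2 size factors, 4 members were at least 2-fold higher in WT eWAT than in WT spleen, against 5. No member's ratio changed direction under these alternatives. The median of the members in WT eWAT over WT spleen was 1.06, and 0.85 with Tpsb2 at its bound. Without either spleen library the test has no residual degrees of freedom. No paired analysis was possible because there is 1 library per group. Low counts limit Gata2, Ms4a2 and every spleen ratio of the proteases, and a genotype difference cannot be told apart from a difference between 2 sorts.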
